A study of Mus musculus with 2 samples.

Results

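Mt1 and Mt2 encode the widely expressed metallothioneins of the mouse, and they are followed here through every cell class of the pancreas at embryonic day 13.5. They were chosen by symbol, 2 of the 27998 gene rows in the deposited matrices. They were picked with earlier results of these cells known, so their levels and their difference between the libraries are a description. The tissue came from C57BL/6 embryos: 1 pancreas titled knockout, in a series on Dpy30∆P, and 1 control pancreas. Neither the driver that deletes Dpy30, nor the deleted stretch, nor the control's genotype is given in the sources used here. Pancreata were digested with trypsin, live cells were sorted by exclusion of 7-AAD, and droplet libraries that read the 3′ end of each transcript were made, with unique molecular identifiers (UMIs) counting molecules. Each condition rests on a single embryo and library (n = 1), differences therefore carry no replicate check, and every 95% interval (exact Poisson for levels, exact Clopper-Pearson for shares) covers counting error only.

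Metallothioneins are small, cysteine-rich proteins of the cytoplasm and nucleus that bind zinc and copper. Zinc activates the transcription factor MTF1, which binds metal response elements in the Mt1 and Mt2 promoters, and glucocorticoids and oxidative stress also induce both genes. In the pancreas, acinar cells are known to express both genes and to respond to zinc by raising them.

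Both genes lie on the plus strand of chromosome 8 in GRCm38. Mt2 (ENSMUSG00000031762) spans 94172664 to 94173568 and Mt1 (ENSMUSG00000031765) spans 94179082 to 94180327 in GENCODE M21, with 5513 bases between them. Mt3 (94152607 to 94154146) and Mt4 (94137197 to 94139031) lie before them on the same strand. The longest exact run shared by an Mt1 and an Mt2 transcript was 20 bases. An antisense gene, Gm45774 (94170748 to 94173412), overlaps Mt2 and has no row in the matrices, and the strand setting used in counting is unknown.

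The promoters of both genes are shown because the metal response elements in them set these genes apart from most others. Each window runs from 250 bases before the RefSeq start of GRCm38.p6 to 30 bases from it, 5′ to 3′ on the plus strand. Mt1 is chr8:94178839-94179118 and Mt2 is chr8:94172368-94172647, and the RefSeq starts differ from the GENCODE starts. Capitals mark the core of the metal response element, TGCACNC or TGCGCNC on either strand, which reads GTGTGCA or GTGCGCA where it lies on the minus strand.
Mt1: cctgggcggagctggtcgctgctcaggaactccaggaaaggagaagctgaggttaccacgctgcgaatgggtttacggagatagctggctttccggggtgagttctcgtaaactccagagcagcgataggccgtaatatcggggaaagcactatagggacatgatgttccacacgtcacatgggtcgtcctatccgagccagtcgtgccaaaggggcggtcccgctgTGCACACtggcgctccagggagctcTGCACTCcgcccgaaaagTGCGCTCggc
Mt2: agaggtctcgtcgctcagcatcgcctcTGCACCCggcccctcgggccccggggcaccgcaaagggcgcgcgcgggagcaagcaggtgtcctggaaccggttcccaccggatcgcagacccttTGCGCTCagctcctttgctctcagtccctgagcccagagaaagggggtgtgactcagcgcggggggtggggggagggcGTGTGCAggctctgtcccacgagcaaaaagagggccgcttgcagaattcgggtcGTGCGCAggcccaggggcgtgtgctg
The Mt1 window held 3 cores, the nearest upstream one at -23 to -17, counting the annotated start as 0. The Mt2 window held 4, at -223 to -217, -128 to -122, -50 to -44 and 4 to 10. Among 32851 RefSeq promoters cut to the same length, 24.1% held at least 1 core, 1.13% held at least 3 and 0.225% held at least 4. The Mt3 window held 0 cores and the Mt4 window 1. The core of the antioxidant response element (TGACNNNGC, either strand) occurred once in the Mt2 window, at -79 to -71, and in 11.49% of all windows. The E-box CACGTG, which reads the same on both strands, was in neither window and in 6.79% of all. These matches are letters in a window and were not measured as bound sites. The Mt1 window ends before the GENCODE starts of the transcripts Mt1-203 (94179211) and Mt1-202 (94179241). The Mt2 window ends before the GENCODE starts of the transcripts Mt2-201 (94172664) and Mt2-202 (94172860). Bases between the end of each window and those starts were not searched, so sites there are not counted.

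The knockout library held 3044 barcodes and 28033433 UMIs, and the control library 3900 barcodes and 32702089 UMIs, with 22 barcode sequences in both. After filtering, 2938 knockout and 3749 control cells were clustered and named from marker genes, each name being read as "-like". Epithelial cells numbered 468 in the knockout and 749 in the control library, with median depths of 14325.5 and 12128 UMIs. The epithelial class expressed 10 of 10 epithelial markers above 10 CPM (UMIs of a gene per 1000000 UMIs) in both libraries. Tip-like cells, the future acinar cells, made up 40.2% of the knockout epithelium against 25.5% of the control epithelium. Trunk-like cells, the bipotent duct and endocrine precursors, made up 45.9% and 47.4%. Some clusters stood apart by library: tip-like cluster 11 had 65 knockout and 3 control cells, and mesenchyme-like clusters 1 and 8 had 35 and 180 knockout cells against 689 and 37 control cells. Dpy30 itself stood at 266 CPM in knockout epithelium against 225 CPM in control epithelium. A 3′ end read outside a deleted stretch does not check the label, so "knockout" here means the library labelled so. The embryos also differed in sex-linked RNA: Xist stood at 1413 CPM in knockout epithelium against 0 UMIs in control epithelium, and Ddx3y at 0 UMIs against 43.9 CPM. Sex and genotype cannot be told apart here.

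In the epithelium both genes were lower in the knockout library. Mt1 stood at 238 CPM (227 to 250) in knockout epithelium and 543 CPM (529 to 558) in control epithelium. Mt2 stood at 235 CPM (224 to 247) in knockout epithelium against 405 CPM (393 to 418) in control epithelium. On the scale log2 of (CPM + 5), knockout over control, the differences were -1.17 (-1.25 to -1.10) for Mt1 and -0.77 (-0.86 to -0.69) for Mt2. Both passed the 1.5-fold mark used as a call, as did 1.95% of the 12074 genes with at least 20 UMIs over both epithelial sums. From the lowest ratio upward, Mt1 was 26th and Mt2 92nd, and the median of all tested genes was -0.02. Since classes with high and low metallothionein levels made up different shares of the 2 epithelia, the classes are given one by one.

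**Figure D1:**
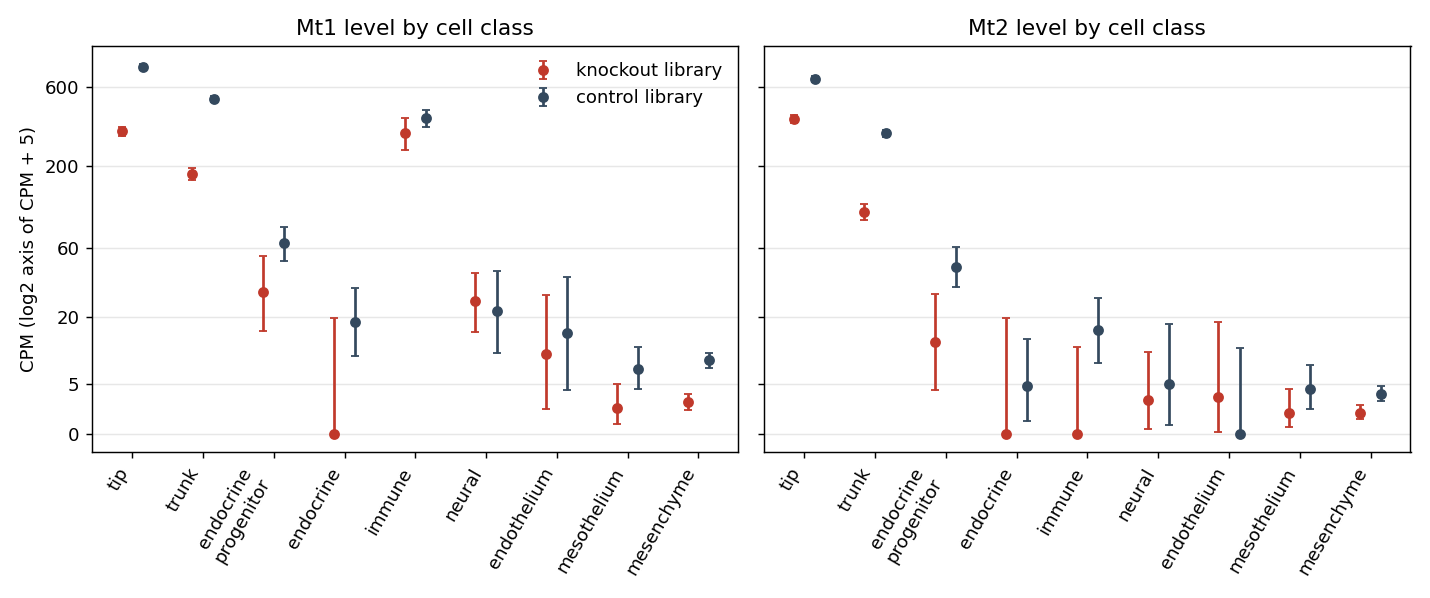
Level of Mt1 (left) and Mt2 (right) in CPM of summed UMIs, on a log2 axis of CPM + 5, for 9 cell classes (each named as "-like" from markers), with the knockout library in red left of the control library in dark blue. Bars are 95% Poisson intervals, and a level of 0 is drawn up to 3 counts; the red point lies below the blue one in tip, trunk and endocrine progenitor cells for both genes, and in immune and neural cells the Mt1 bars overlap.

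Of the 9 classes compared, tip-like cells had the highest level of both genes in either library, although the Mt1 intervals of knockout tip-like and immune-like cells overlapped. An erythroid-like cluster outside these classes had 562 CPM of Mt1 (455 to 686) in 9 knockout cells and 701 CPM (519 to 927) in 7 control cells, and its Mt2 stood at 93.7 CPM in the knockout against 687 CPM in the control. Mt1 stood at 324 CPM (305 to 344) over 188 knockout cells and 799 CPM (771 to 828) over 191 control cells, a log2 difference of -1.29 (-1.39 to -1.19). Only 7 of 9976 tested genes had a lower ratio in that class, where 2.48% were at least 1.5-fold lower. Mt2 stood at 384 CPM (364 to 405) in knockout tip-like cells against 677 CPM (651 to 703) in control tip-like cells, a log2 difference of -0.81 (-0.90 to -0.71). Both genes were past the 1.5-fold mark, and without cluster 11 the differences were -1.03 and -0.59.

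Trunk-like cells had lower levels of both genes in the knockout as well. Mt1 stood at 178 CPM (163 to 194) over 215 knockout cells and 509 CPM (489 to 530) over 355 control cells, a log2 difference of -1.49 (-1.63 to -1.36). Mt2 stood at 102 CPM (91.1 to 115) in knockout trunk-like cells against 316 CPM (300.2 to 333) in control trunk-like cells, a log2 difference of -1.58 (-1.76 to -1.41). The size of the Mt2 difference varied with the way cells were averaged, and a mean of per-cell CPM without the 5% lowest and highest cells gave -2.45. The counting intervals of the trunk and tip differences were apart for Mt2 and overlapped for Mt1. In trunk-like cells the genes were the 9th and 8th lowest of 10569 tested genes, of which 1.81% were at least 1.5-fold lower and 0.237% at least 2-fold lower.

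Endocrine progenitor-like cells, marked by Neurog3, the transcription factor that starts the endocrine program, had far less of either transcript. Mt1 stood at 30.6 CPM (15.8 to 53.4; 12 UMIs in 45 cells) in the knockout library and 64.8 CPM (49.9 to 82.8; 64 UMIs in 128 cells) in the control library. Mt2 stood at 12.7 CPM (4.14 to 29.7) in knockout against 45.6 CPM (33.3 to 61.0) in control cells. The log2 differences were -0.97 (-1.82 to -0.18) and -1.51 (-2.54 to -0.46), in a class where 10.3% of tested genes were at least 1.5-fold lower. Hormone-expressing endocrine-like cells had 0 UMIs of either gene in 20 knockout cells, which allows up to 19.9 CPM, against 12 UMIs of Mt1 (18.6 CPM) and 3 UMIs of Mt2 (4.66 CPM) in 75 control cells. At this depth a difference in endocrine-like cells was not detectable.

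Of the 5 classes compared outside the epithelium, the immune-like class alone reached the epithelial range, and for Mt1 only. Mt1 stood at 315 CPM (251 to 392.1) over 23 knockout cells and 391 CPM (347 to 438) over 81 control cells, and these intervals overlap. The log2 difference was -0.30 (-0.67 to 0.05), within a class where 16.3% of genes were at least 1.5-fold lower. Mt2 had 0 UMIs in knockout immune-like cells, which allows 11.7 CPM, against 12 UMIs (15.9 CPM, 8.24 to 27.8) in control immune-like cells, an interval that includes that limit. Splitting the class after seeing the data, cells with more C1qa, C1qb and C1qc UMIs, complement genes of macrophages, had 617 CPM of Mt1 (472 to 793) in 12 knockout cells and 606 CPM (534 to 684) in 47 control cells. Cells with more S100a8 and S100a9 UMIs, calcium-binding genes of neutrophils and monocytes, had 285 CPM (159.6 to 470.3) in 3 knockout cells against 159 CPM (108 to 228) in 21 control cells. The remaining cells had 47.5 CPM (15.4 to 111) in 8 of the 23 knockout cells and 22.4 CPM (4.63 to 65.6) in 13 of the 81 control cells. Mt1 was thus not lower in the knockout in any of the 3 subsets, and the intervals overlapped in each.

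Mesenchyme-like and mesothelium-like cells had few metallothionein UMIs. In 2093 knockout and 2581 control mesenchyme-like cells there were 43 and 148 UMIs of Mt1, or 2.70 CPM (1.95 to 3.64) against 8.80 CPM (7.44 to 10.3). For Mt2 there were 27 UMIs in the knockout against 62 in the control, or 1.70 CPM (1.12 to 2.47) against 3.68 CPM (2.82 to 4.72). The log2 differences of (CPM + 5) were -0.84 (-1.05 to -0.62) and -0.38 (-0.58 to -0.16); Mt1 passed the 1.5-fold mark, as did 0.821% of 12786 genes, and Mt2 did not. At these low levels the size depends on the scale: for Mt1 it was -1.40 with 1 CPM added, -0.34 with 20 CPM added and -0.0503 with the trimmed mean of per-cell CPM, and under the last 2 it did not pass the mark. The epithelial minus the mesenchymal difference was -0.33 (-0.57 to -0.11) for Mt1 on the + 5 scale, whereas with 1 CPM added Mt1 stood at -1.19 in the epithelium and -1.40 in mesenchyme-like cells, so the drops have no fixed order. In mesothelium-like cells, Mt1 stood at 2.10 CPM (5 UMIs) in the knockout and 7.30 CPM (17 UMIs) in the control, and Mt2 at 1.68 against 4.29 CPM. The log2 difference of Mt1 there was -0.79 (-1.34 to -0.16), past the mark that 3.74% of 9876 genes passed, and that of Mt2 was -0.48 (-1.03 to 0.14). The Mt1 difference in mesothelium-like cells no longer passed the mark after thinning to 3000 UMIs per cell (-0.52), with 20 CPM added (-0.31) or with the trimmed mean (-0.24).

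Free RNA from lysed cells puts UMIs into droplets of cells that do not make them, and its level was not measured here because droplets without cells were not analysed. Summed over 14 tip markers, mesenchyme-like cells carried 65.8 CPM in the knockout library and 92.2 CPM in the control library, against 7944 and 11966 CPM in tip-like cells. The summed level of 10 epithelial markers in mesenchyme-like cells was 27.3 CPM in the knockout and 36.2 CPM in the control. The part of free RNA in the mesenchymal metallothionein UMIs was not tested.

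Neural-like cells had 26.3 CPM of Mt1 (15.6 to 41.5) in the knockout and 22.3 CPM (10.2 to 42.3) in the control, with 2 UMIs of Mt2 in each library. Their log2 difference was 0.20 (-0.80 to 1.22) for Mt1, and 8.79% of genes in that class were at least 1.5-fold lower. Endothelium-like cells had 3 UMIs of Mt1 in 29 knockout cells and 4 in 26 control cells, and 1 and 0 UMIs of Mt2, too few to compare.

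Ordered by level, Mt1 in the knockout library ran from tip-like through immune-like, trunk-like, endocrine progenitor-like and neural-like cells down to endothelium-like, mesenchyme-like and mesothelium-like cells, with endocrine-like cells at 0. The tip-like and immune-like intervals overlapped, and so did those of each neighbouring pair from endocrine progenitor-like cells downward. In the control library trunk-like cells stood above immune-like cells (509 against 391 CPM), and the intervals of tip-like, trunk-like, immune-like and endocrine progenitor-like cells were all apart. Below them, neighbouring intervals overlapped. For Mt2 the order in both libraries was tip-like, trunk-like, endocrine progenitor-like, and then classes under 16 CPM.

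In tip-like and trunk-like cells, both the share of cells with a metallothionein UMI and the UMIs in such cells were lower in the knockout. A lower mean lowers both by counting alone, so they are not separate parts of the difference. Each cell was thinned to 3000 UMIs, which left out 2 knockout and 6 control epithelial cells. A UMI of Mt1 was then seen in 43.1% (35.9 to 50.5) of knockout tip-like cells against 74.3% (67.5 to 80.4) of control tip-like cells. In trunk-like cells the share was 27.0% (21.2 to 33.4) in the knockout and 61.4% (56.1 to 66.5) in the control. Before thinning the trunk shares were 53.5% and 85.9%, at median depths of 13211 and 12586 UMIs. For Mt2 the thinned shares were 49.5% of knockout against 74.9% of control tip-like cells, and 13.0% of knockout against 41.2% of control trunk-like cells. Mesenchyme-like cells, at median depths of 7234 and 6017 UMIs, had an Mt1 UMI in 0.831% of knockout and 2.63% of control cells, far below the epithelial shares.

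Among cells with at least 1 thinned UMI of either gene, the mean was 2.4 UMIs in knockout trunk-like cells against 3.8 in control trunk-like cells. In tip-like cells it was 3.3 in the knockout and 5.2 in the control. At least 5 UMIs of the 2 genes together were found in 2.8% of knockout and 20.2% of control trunk-like cells, and in 17.0% of knockout and 37.7% of control tip-like cells. Knockout trunk-like cells with 9 or more such UMIs were nevertheless present, 3 of 215 against 25 of 352 in the control.

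**Figure D2:**
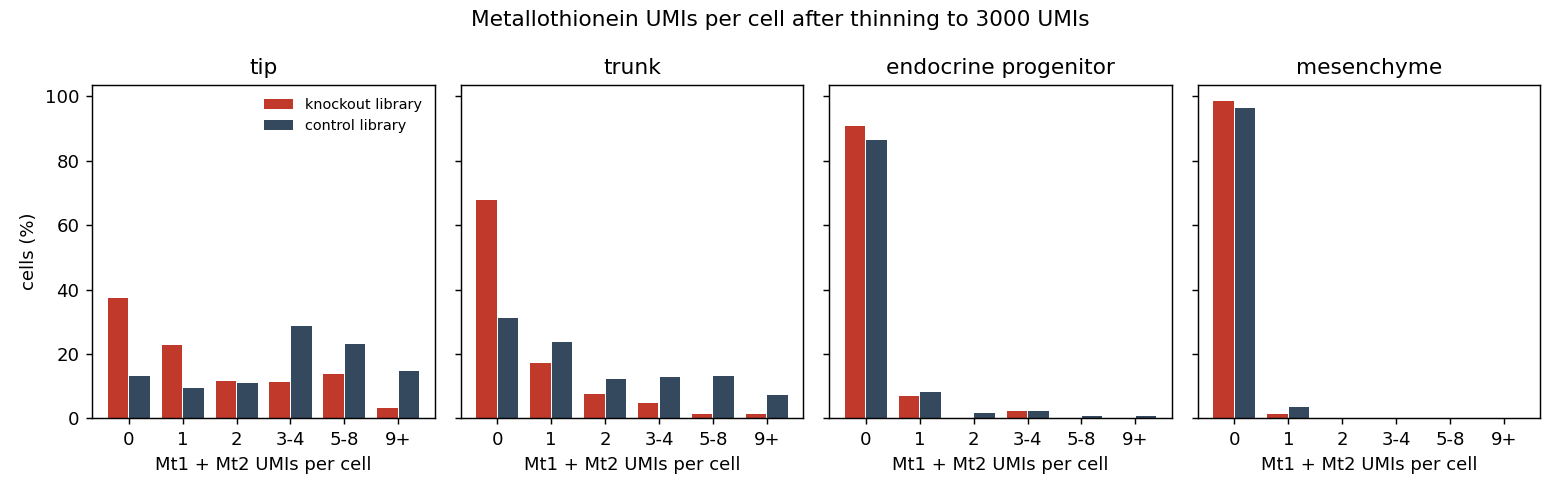
Percentage of cells (vertical axis) by the number of Mt1 plus Mt2 UMIs per cell after thinning to 3000 UMIs (horizontal axis), in tip-, trunk-, endocrine progenitor- and mesenchyme-like cells, with the knockout library in red left of the control library in dark blue. Of trunk-like cells, 67.9% of knockout and 31.2% of control cells had 0; in mesenchyme-like cells 98.6% and 96.4% had 0.

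Per cell and without thinning, the median level of Mt1 in tip-like cells was 165 CPM in the knockout, with a highest cell at 2462 CPM, against 679 CPM in the control, with a highest cell at 2823 CPM. In trunk-like cells the median of Mt1 was 49.6 CPM in the knockout against 346 CPM in the control, and the highest cells reached 2899 and 4345 CPM. The median of Mt2 in trunk-like cells was 0 CPM in the knockout and 154 CPM in the control, and the highest cells reached 2885 and 2598 CPM. The ranges of single cells thus overlapped, with the top of the control range of Mt1 in trunk-like cells above every knockout cell, and each of these medians was lower in the knockout.

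How unevenly the transcripts were spread over cells was described in several ways. The 22 knockout trunk-like cells with the most Mt2, of 215, held 76.3% of that class's Mt2 UMIs, and the 36 such control cells, of 355, held 43.9%. The 22 knockout and 36 control trunk-like cells with the most Mt1 held 59.1% and 37.99% of its UMIs. In tip-like cells the 19 highest cells of each library held 45.7% of Mt1 UMIs in the knockout and 27.2% in the control. Such a share rises by counting alone where the mean is lower, so it shows no difference in unevenness by itself. The variance over the mean of thinned counts (1 for pure counting noise) was 3.06 for Mt1 in knockout trunk-like cells and 3.29 in control trunk-like cells. It was 2.28 in knockout and 2.82 in control tip-like cells, so by this measure Mt1 was not more uneven in the knockout. For Mt2 it was higher in the knockout, at 3.86 against 2.74 in trunk-like and 2.55 against 1.77 in tip-like cells. This measure also moves with the mean, which was lower in the knockout. With counting noise taken off and scaled by the squared mean, the variance of Mt1 was higher in the knockout. It was 3.98 against 1.36 in trunk-like cells and 1.35 against 0.776 in tip-like cells, so the answer for Mt1 depends on the measure. The same scaled variance of Mt2 in trunk-like cells was 10.998 in the knockout and 1.83 in the control. In tip-like cells the scaled variance of Mt2 was 1.41 in the knockout against 0.361 in the control. Only 3 of 215 knockout trunk-like cells had 5 or more thinned Mt2 UMIs, so that value rests on few cells. In mesenchyme-like cells the variance over the mean of Mt1 was 0.992 and 1.03, that is, about what counting alone gives.

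Epithelial clusters with at least 15 cells in each library were compared one by one, since they divide the classes by cell cycle phase and maturity. In all 5 such trunk-like clusters both genes were at least 1.5-fold lower in the knockout, with log2 differences of -2.16 to -0.98 for Mt1 and -2.02 to -1.28 for Mt2. The widest for Mt1 was cluster 9, led by Rtn1, Tubb2b and Mycn, at 134.9 CPM (109 to 165) in 52 knockout cells against 621 CPM (569 to 677) in 70 control cells. In all 3 tip-like clusters of that size Mt1 was at least 1.5-fold lower (-1.38 to -0.64), and Mt2 was so in 1 of 3. Tip-like cluster 4, led by the mitotic genes Ube2c and Cdc20, had nearly the same Mt2 in both libraries: 664 CPM (594 to 739) in 21 knockout cells and 713 CPM (669 to 758) in 59 control cells. Mt1 in these mitotic tip-like cells was 548 CPM (485 to 617) in the knockout against 858 CPM (811 to 908) in the control. Cluster 11, led by Vtn and Reg1, had 166 CPM of Mt1 (142 to 193) and 220 CPM of Mt2 (192 to 251) in its 65 knockout cells, and its 3 control cells had 405 CPM (244 to 633) and 235 CPM (117 to 420). The 10 mesenchyme-like clusters with at least 15 cells a library were all lower in the knockout for Mt1, 6 of them at least 1.5-fold, and 8 were lower for Mt2, 1 of them at least 1.5-fold. Most rest on few UMIs, such as 1 knockout and 2 control UMIs of Mt1 in mesenchyme-like cluster 7. The Mt1 interval lay below 0 only in mesenchyme-like clusters 6, 8, 11 and 13. Clusters 0 and 1 passed the mark with intervals that include 0. The Mt2 call, in mesenchyme-like cluster 11, came from 2 against 9 UMIs (-0.72, -1.37 to 0.13).

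**Figure D3:**
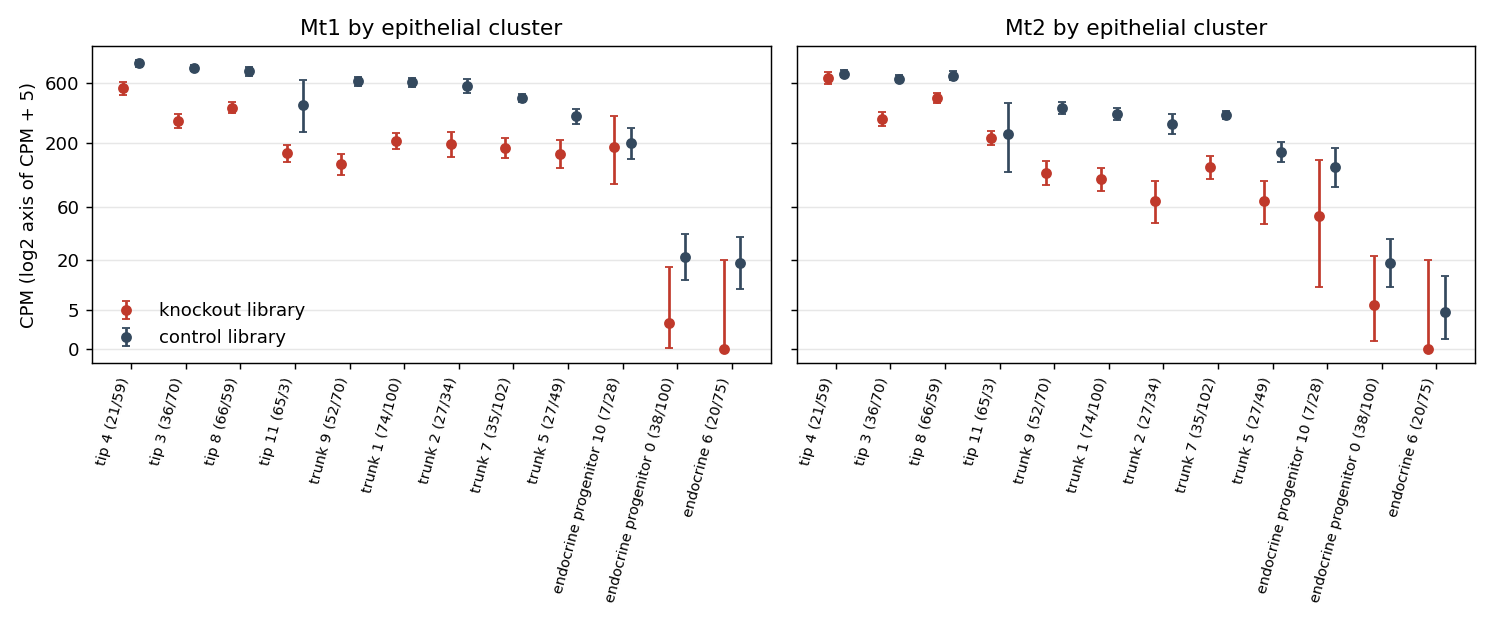
Level of Mt1 (left) and Mt2 (right) in CPM, on a log2 axis of CPM + 5, by epithelial cluster, with knockout and control cell numbers in brackets, the knockout library in red left of the control library in dark blue, and 95% Poisson intervals (a level of 0 is drawn up to 3 counts). Both genes are lower in the knockout in trunk clusters 9, 1, 2, 7 and 5, and the Mt2 intervals of tip cluster 4 overlap.

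Along the endocrine path the transcripts became scarce in both libraries. Splitting epithelial cells by thinned Neurog3 UMIs, a split added after seeing the data, Mt1 in cells with 0 Neurog3 UMIs stood at 234 CPM (207 to 264) in the knockout and 556 CPM (521 to 593) in the control. With 1 to 2 Neurog3 UMIs it stood at 153 CPM (76.3 to 273) in 24 knockout cells against 508 CPM (410.2 to 623) in 61 control cells. With 3 to 9 it stood at 88.9 CPM (38.4 to 175) in 30 knockout cells against 250 CPM (172 to 351) in 44 control cells. With 10 or more, 30.3 CPM (3.67 to 109) in 22 knockout cells and 26.7 CPM (9.79 to 58.0) in 75 control cells overlapped. The gap between the libraries was thus seen in cells with low Neurog3 and was not detectable at this depth where Neurog3 was highest. The cells with 0 Neurog3 UMIs, 390 knockout and 563 control cells, pool epithelial classes and are not a stage of the endocrine path. The early progenitor cluster 10, led by Rsad2, Grin3a and Dll1, a Notch ligand, had 185 CPM of Mt1 (92.3 to 331) in 7 knockout cells and 200.2 CPM (148 to 265) in 28 control cells. The later progenitor cluster 0, led by Cck and Tubb3, had 3.003 CPM (1 UMI in 38 cells) in the knockout against 21.4 CPM (16 UMIs in 100 cells) in the control.

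**Figure D4:**
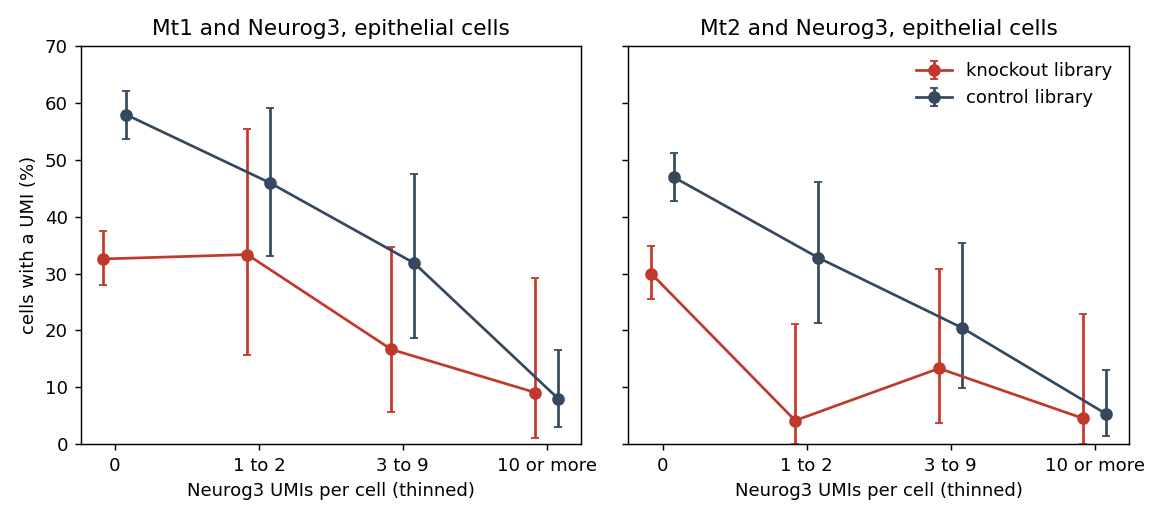
Percentage of epithelial cells with a UMI of Mt1 (left) and Mt2 (right) after thinning to 3000 UMIs, by the number of Neurog3 UMIs in the same thinned cell, with the knockout library in red and the control library in dark blue and exact 95% binomial intervals. With 0 Neurog3 UMIs, 32.6% of knockout and 57.9% of control cells had an Mt1 UMI; with 10 or more, 9.09% and 8.00% did.

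The authors' deposited table of cluster genes, whose cells are not split by library, lists both genes below the other cells in 2 of its clusters. In the authors' deposited table, read as natural logs, Mt1 had an average log fold of -1.48 in the cluster led by Gcg and Pyy, where it was seen in 11.4% of cells, and Mt2 had -1.32. In the same deposited table by the authors, Mt1 stood at -1.50 and Mt2 at -1.32 in the cluster led by Neurog3.

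Mt1 and Mt2 went together from cell to cell. Over thinned epithelial cells, centred on the mean of each class, Mt2 had the highest correlation with Mt1 of 5678 genes in the knockout (Pearson r = 0.464) and of 5783 genes in the control (r = 0.519). The next gene was Dlk1 at 0.219 in the knockout and Serpinh1 at 0.161 in the control. These are descriptions over cells of 1 library each, which share a library and their depth after thinning. Within trunk-like cells r between the 2 genes was 0.431 over 215 knockout cells and 0.561 over 352 control cells, and within tip-like cells 0.490 and 0.438. Of trunk-like cells with an Mt2 UMI, 60.7% also had an Mt1 UMI in the knockout, against 21.9% of those without Mt2. In control trunk-like cells these shares were 82.1% and 46.9%. In mesenchyme-like cells 2 of 2045 knockout and 3 of 2551 control cells had UMIs of both.

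Few other genes varied with the pair. The 8 genes most alike to the summed Mt1 and Mt2 UMIs within epithelial classes, by the lower r of the 2 libraries among 5310 genes, were Eno1, Nupr1, Hspe1, Dkc1, Gstm1, Ghitm, Hmgb1 and Dap. Eno1, a glycolytic enzyme, led with r of 0.160 in the knockout and 0.099 in the control, and Nupr1, a stress-induced chromatin protein, followed with 0.141 and 0.095. In sparse counts such weak values are no finding. Eno1 and Nupr1 had epithelial log2 differences of 0.07 and -0.05 between the libraries. In mesenchyme-like cells the leading gene by the same rule, 0610009O20Rik, reached r of 0.043 and 0.047.

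The balance between the 2 genes differed by cell class. A 3′ count gives 1 tag per molecule, so the share of Mt2 among the UMIs of both is set against the same share in other cells and is not read as more Mt2 than Mt1. Mt2 made up 54.2% (52.2 to 56.2) of the pair in knockout tip-like cells and 45.9% (44.5 to 47.2) in control tip-like cells. In trunk-like cells it was 36.5% (33.2 to 39.9) in the knockout and 38.3% (36.8 to 39.9) in the control, which overlap. In mesenchyme-like cells it was 38.6% (27.2 to 51.0) and 29.5% (23.4 to 36.2). Immune-like cells had almost no Mt2: 0 of 81 UMIs in the knockout, which allows up to 3.70%, and 3.92% (2.04 to 6.75) of 306 UMIs in the control. The tip-like and trunk-like intervals were apart in both libraries, and the immune-like ones lay below both.

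**Figure D5:**
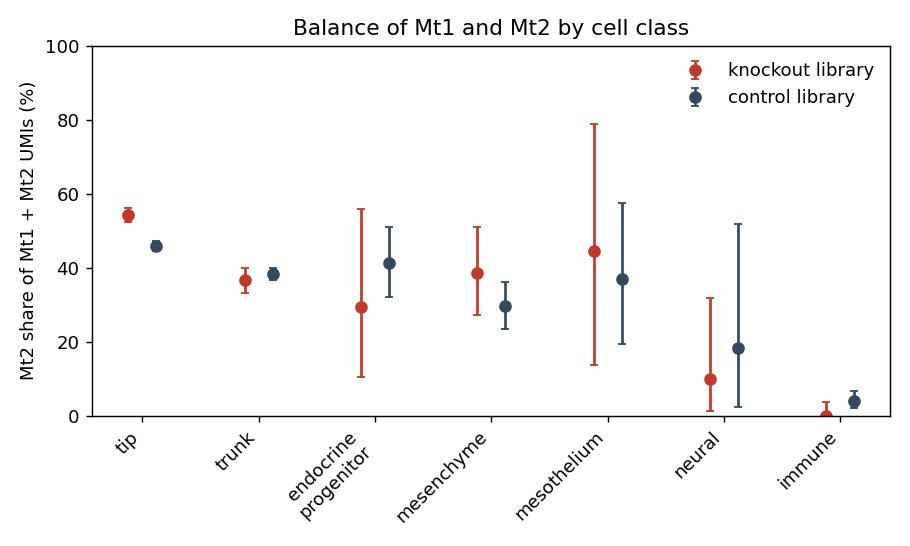
Mt2 as a percentage of the summed Mt1 and Mt2 UMIs (vertical axis) by cell class, with the knockout library in red left of the control library in dark blue and exact 95% binomial intervals (a share of 0 is drawn up to 3 counts). Tip-like cells stand at 54.2% and 45.9%, trunk-like cells at 36.5% and 38.3%, and immune-like cells at 0% and 3.92%.

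Other genes of metal handling showed little difference in the epithelium. The list of metal-regulated transcription, with the metal sensor Mtf1 and the glucocorticoid receptor Nr3c1, had 0 of 5 tested members at least 1.5-fold lower and 0 higher, beside 1.95% and 0.779% of all genes. Mtf1 stood at 17.8 CPM in the knockout and 17.9 CPM in the control, and Nr3c1 at 37.8 and 34.0 CPM. Of 6 tested zinc exporters 0 passed the mark in either direction; Slc30a1, the plasma membrane exporter that MTF1 also induces, stood at 5.07 CPM in the knockout and 5.33 CPM in the control. Of 13 tested zinc importers 2 were lower: Slc39a2 at 3.91 against 8.59 CPM and Slc39a8 at 2.46 against 6.42 CPM, and the list's median was -0.11 against -0.02 for all genes. Slc39a2 was among the 10 leading genes of a Neurog3-led cluster, of which the knockout library had 15 cells and the control 65. Of 11 copper handling and 10 iron handling genes, 0 passed the mark. Mt3, the neural metallothionein, stood at 4.78 CPM in knockout epithelium against 7.11 CPM in control epithelium (-0.31, -0.62 to 0.02), and Mt4 had 0 and 1 UMIs.

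Lists for other known inducers of metallothioneins were counted in the same way. Of 17 oxidative stress genes 0 passed the mark in either direction, and Txnrd1, thioredoxin reductase, stood at 91.7 CPM in the knockout and 95.6 CPM in the control. Gsta4 (-0.58) and Gsr (0.58) were just short of it. In tip-like cells 1 of 15 was lower, beside 2.48% of all genes: Gsta4 at 16.9 against 38.1 CPM. In trunk-like cells 0 of 16 were lower, beside 1.81% of all genes, and Gsr was past the mark upward, at 58.3 against 36.8 CPM. In the whole epithelium, 0 of 9 glucocorticoid response genes passed, with Fkbp5 at 12.02 against 11.6 CPM. Of 11 hypoxia genes 1 was lower, Car9, a carbonic anhydrase, at 13.8 against 24.8 CPM. The heat shock and dissociation list had 3 of 15 lower and a median of -0.29: Junb stood at 83.9 against 130 CPM, Ier3 at 8.55 against 26.1 CPM and Nr4a1 at 52.0 against 81.5 CPM. These 3 are immediate early genes, which cell dissociation is known to induce. By class, the list had 4 of 15 tested members lower in trunk-like cells (Junb, Ier3, Zfp36 and Nr4a1), beside 1.81% of all genes. Its median there was -0.19. In tip-like cells the list had 0 of 15 lower and 2 higher, beside 2.94% of all genes higher: Dnajb1 at 65.9 against 39.4 CPM and Atf3 at 21.6 against 12.1 CPM. Most members were nevertheless below 0 there, 10 of 15, with a median of -0.23 beside 0.03 for all genes. Junb, at 84.9 against 124 CPM, and Egr1, at 174 against 251 CPM, were lower but short of the mark. In mesenchyme-like cells 2 of 17 were lower, beside 0.821% of all genes: Ier3 at 21.2 against 42.8 CPM and Nr4a1 at 45.3 against 99.1 CPM. Of the 17 in mesenchyme-like cells, 11 were below 0, with a median of -0.23 beside -0.01 for all genes. Egr1, at 362 against 488 CPM, and Junb, at 226 against 304 CPM, were lower without passing the mark. Others there stood higher in the knockout without passing it, with Atf3 at 46.2 against 30.8 CPM and Hspb1 at 9.17 against 6.24 CPM. In neural-like cells the list had 7 of 11 lower, beside 8.79% of all genes, a median of -1.06 and an Mt1 difference of 0.20. Immune-like cells had 9 of 14 lower, beside 16.3%, a median of -0.68 and Mt1 at -0.30. Mesothelium-like cells had 1 of 15 lower, beside 3.74%, a median of 0.01 and Mt1 at -0.79. Endocrine progenitor-like cells had 0 of 13 lower, beside 10.3%, a median of -0.0004 and Mt1 at -0.97. The integrated stress list had 2 of 8 lower and a median of -0.43, with Psat1, an enzyme of serine synthesis, at 22.9 against 45.5 CPM and Sesn2 at 6.08 against 12.2 CPM. Their part in the metallothionein difference was not tested. Of 10 tested genes of the surrounding region, Mt1 and Mt2 themselves among them, 3 were at least 1.5-fold lower, beside 1.95% of all genes. These were Mt1, Mt2 and Gnao1, a G protein subunit (9.70 against 20.6 CPM). Gnao1 had 0 UMIs in tip-like cells of both libraries, and 0 knockout and 2 control UMIs in trunk-like cells. It was thus hardly seen in the 2 classes with the most Mt1 and Mt2 UMIs. Nup93, the next protein-coding gene after Mt1 and a nuclear pore subunit, stood at 22.9 against 34.2 CPM (-0.49, -0.72 to -0.26), short of the mark, and Bbs2, on the other side of the metallothionein genes, at 5.65 against 7.11 CPM. In trunk-like cells Nup93 was past the mark, as were 1.81% of all genes, at 22.5 against 42.0 CPM (-0.77, -1.12 to -0.43). In tip-like cells Nup93 stood at 23.6 against 29.7 CPM (-0.28, -0.63 to 0.08). Bbs2 and Ogfod1, the gene beyond it, were higher in knockout tip-like cells, at 5.83 against 3.42 CPM and 6.71 against 2.89 CPM. In trunk-like cells Bbs2 stood at 5.80 against 8.31 CPM and Ogfod1 at 5.80 against 3.83 CPM. Nudt21, further on, differed by -0.003 in tip-like and -0.03 in trunk-like cells. Of 9 tested region genes, Mt1, Mt2 and Mt3 among them, 7 were below 0 in each of these classes.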

How the data were processed

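Pancreata of 1 knockout-titled and 1 control embryo were profiled with the 10x Chromium 3′ kit (version 2), per the labels' protocols, and groups follow the sample titles. The deposited matrices hold raw UMI counts, and the submitters' processing notes name Cell Ranger and GRCm38. Neither aligner nor annotation release is given in the sources used here. In the authors' deposited cluster table, whose column names are those Seurat writes, the fold of a gene is an average log, read as a natural log per the file headers. The fraction of a cluster's cells with a UMI was computed by the authors. The p-values over cells in the deposited table were not used.

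Cells with at least 500 genes, 1000 UMIs and at most 10% mitochondrial UMIs were kept, leaving out 32 knockout and 29 control barcodes. The cells with the highest doublet scores (0.8% per 1000 barcodes; 74 knockout and 122 control cells) were removed. Cells were scaled to 10000, log-transformed and clustered in scanpy 1.11.5 on 2000 variable genes, 30 principal components and 15 neighbours (Leiden, resolution 1.0, seed 0), and the epithelium again. Names needed at least 3 detected markers. UMIs were summed per library and class as CPM of all genes. Ratio intervals combine the exact Poisson intervals of both sums on the log2 scale. Genes named for likeness were the 8 with the highest r in both libraries, seen in at least 5% of cells, and list members were named as examples. Ratios and thinning were tested on simulated data. No test between groups was made, each having 1 library. The genes, lists and rules were chosen with earlier results of these data known. Alternatives covered cell filters, doublet removal, clustering, scaling (TMM from edgeR 4.0.16, median of ratios), genes in the total, means over cells, thinning and pseudocounts of 1 and 20. Another part of the authors' cluster table is not reported here.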

Additional observations from a re-analysis of the deposited data

Results flagged for a closer look

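Metallothionein UMIs were also found in barcodes outside the compared classes, above the 3-count limit. In barcodes that failed the filter and held mostly haemoglobin UMIs (28 knockout and 27 control), Mt1 stood at 79.9 CPM in the knockout and 188.9 CPM in the control, and Mt2 at 13.3 against 38.9 CPM, the last from 4 and 7 UMIs. In the erythroid-like cluster (9 knockout and 7 control cells), Mt1 stood at 562 CPM (455 to 686) in the knockout and 701 CPM (519 to 927) in the control. Mt2 there stood at 93.7 CPM (53.5 to 152) in the knockout against 687 CPM (506 to 910.5) in the control, where 3 cells held all 48 UMIs. These barcodes are few, and no difference between the libraries in them was tested.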

How the results depend on the processing

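No paired analysis was possible because each group has 1 library. Of 16 alternatives in the epithelium, all kept Mt1 and Mt2 below 0, and 14 moved neither past its counting interval. The exceptions were a mean of per-cell CPM without the 5% lowest and highest cells (-1.41 for Mt1 and -1.10 for Mt2) and classes combined at equal shares of UMIs (-1.36 and -1.02). In mesenchyme-like cells, Mt1 was -1.40 with 1 CPM added, -0.34 with 20 CPM added and -0.0503 with the trimmed mean, and Mt2 was -0.80, -0.13 and 0.00; trimming removes most of the few cells with a UMI. Clustering without metallothionein, zinc and copper genes gave -1.17 and -0.77 in the epithelium. Leaving out cluster 11, an alternative added after seeing the data, gave -1.10 and -0.76, and leaving out mesenchyme-like clusters 1 and 8, also added, gave -0.78 and -0.34 there. In trunk-like cells the trimmed mean gave -1.95 for Mt1 and -2.45 for Mt2, and no cell filter -1.38 and -1.24. At resolution 0.5, 105 knockout and 992 control cells met no name. With at least 100 UMIs in place of 20, genes at least 1.5-fold lower numbered 149 in place of 247 in tip-like cells, 112 in place of 191 in trunk-like cells, 147 in place of 369 in mesothelium-like cells, 66 in place of 660 in endocrine progenitor-like cells, 35 in place of 494 in neural-like cells and 162 in place of 806 in immune-like cells; at 2-fold the epithelium had 46 in place of 235. Without thinning, 57.7% of knockout and 69.7% of control epithelial cells had an Mt1 UMI, against 30.5% and 50.3% thinned. Depth limits endocrine-like, endothelium-like and neural-like cells, where a few UMIs set each value.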

Other observations

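Mt3, a metallothionein known from the nervous system, was highest in neural-like cells. It stood at 73.0 CPM (54.2 to 96.2; 50 UMIs) in the knockout and 19.8 CPM (8.56 to 39.1; 8 UMIs) in the control, with 63 knockout and 50 control cells. Mesothelium-like cells had 12 UMIs of Mt3 in each library, and mesenchyme-like cells 0 of 15927346 knockout and 16826645 control UMIs. Mt4, known from stratified epithelium, had 1 UMI among all classes of both libraries.

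Over the 18 sums of 9 classes and 2 libraries, the genes whose level went most closely with that of Mt1 were Vrk1 (r = 0.876), Gusb (0.856), Dus1l (0.833) and Hprt (0.824), of 5804 genes compared, and Mt2 reached 0.776. The sums share libraries and cells of 1 embryo each. A pair of control barcodes that failed the filter without being mostly haemoglobin held 15 UMIs of Mt1 and 19 of Mt2 in 7525 UMIs, and 4 such knockout barcodes held 1 and 0 in 10956.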
